A study of Mus musculus with 23 samples.

Results

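The contractile genes of smooth muscle were followed as a set of 32 genes in whole jejunum of mice sensitised to an egg allergen and offered it in drinking water. The 32 genes were named by symbol. Of these, 9 encode parts of the thin filament or proteins that act on actin, and 5 encode myosin or its regulators. A further 11 encode intermediate filament and anchorage proteins, and 4 encode ion channel subunits or the caveolar coat protein. The remaining 3 encode transcription factors or a kinase. All 32 were found among the 55487 genes of the count table, and all 32 passed the filter on low counts that left 17236 genes for testing. The series holds 23 libraries of total RNA, 12 from Cpa3+/+ mice and 11 from Cpa3Cre/+ mice, which carry Cre at the Cpa3 locus and are labelled mast cell-deficient. Libraries came from naive mice, from immunized mice (25 µg ovalbumin with 2 mg alum into the peritoneal cavity on days 0 and 14) and from immunized mice on day 1, 3 or 5 of an oral challenge, begun on day 20, in which a bottle holding 20% egg white and 8% sugar stood beside a bottle of plain water. Each of the 10 groups of genotype and state held 2 or 3 libraries. Of the 23 libraries 18 were from female and 5 from male mice, and the labels used here give no age. In Cpa3+/+ mice the male library was naive replicate 3. In Cpa3Cre/+ mice the male libraries were naive replicate 2, immunized replicate 1, day 1 replicate 2 and day 3 replicate 2. Sex was thus not balanced between the genotypes, and levels in single libraries are not adjusted for it. All groups share the tissue, jejunum from which fat and Peyer's patches had been taken off, so that mucosa and muscle coat were extracted together.

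The jejunal wall carries an inner circular and an outer longitudinal layer of smooth muscle, with a thin muscle sheet under the mucosa. Smooth muscle contracts when calcium, entering through voltage-gated channels or leaving internal stores, activates myosin light-chain kinase, and myosin then pulls on actin filaments that are tied to dense bodies and to the cell membrane. Most genes of this machinery are switched on by serum response factor (SRF), which binds a short sequence called the CArG box and works with the coactivators myocardin and MRTF. In whole intestine the muscle-restricted transcripts among these come mainly from the muscle coat, so their level is commonly read as a measure of how much muscle a sample holds. Genes of the set in wider use, such as Dstn, are expressed in other cells as well and measure muscle less directly.

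Total counts per library ran from 5.48 M to 19.3 M (M for 1000000 counts) with a median of 13.8 M, and levels are given as counts per 1000000 (CPM) after TMM scaling, a correction for differences in library composition. Values of a group are listed in the order of the replicate numbers. Cpa3, the mast cell protease gene at the modified locus, stood at 1.07 CPM in the library labelled Cpa3Cre/+ naive replicate 1, inside the range of 0.827 to 1.84 CPM of the 3 naive Cpa3+/+ libraries. In every other state the Cpa3Cre/+ libraries lay below the Cpa3+/+ libraries for Cpa3. The library labelled Cpa3Cre/+ naive replicate 1 also stood apart in the contractile genes. The range of the summed level and the comparisons that rest most on it are given with and without it. Other values, such as the split of variance and the correlations between genes, include it unless stated. Of 12 markers of skeletal and cardiac muscle, Myh4, Mb, Myh1, Myh2 and Myh6 had no count in 22, 20, 19, 14 and 14 of the 23 libraries. Actc1 ran from 2.61 to 28.6 CPM, Tnnt2 from 2.90 to 22.0 CPM, Ckm from 1.03 to 25.3 CPM and Mylpf from 2.12 to 4.71 CPM, and the first 3 of these were highest in the library labelled Cpa3Cre/+ naive replicate 1. Their part in the results was not tested.

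Summed over the 32 genes, the contractile transcripts ranged from 3230 CPM in Cpa3+/+ day 1 replicate 2 to 15994 CPM in the library labelled Cpa3Cre/+ naive replicate 1, a ratio of 4.95. Without that library the ratio was 2.96, and the highest sum was 9565 CPM in Cpa3Cre/+ day 3 replicate 1. In a sample of whole tissue, fewer muscle cells and less RNA per muscle cell cannot be told apart. The 32 genes took between 0.271% and 2.17% of all counts of a library. For the 16 genes that are largely restricted to muscle, such as Acta2, Myh11, Des and Cnn1, the sum ranged from 805 to 6922 CPM, a ratio of 8.60. The 6922 CPM were again those of the library labelled Cpa3Cre/+ naive replicate 1, and the next highest sum was 4212 CPM in Cpa3Cre/+ day 3 replicate 1. The 16 genes in wider use, such as Dstn, Tpm1, Flna and Actn1, summed to between 2364 and 9072 CPM.

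**Figure D1:**
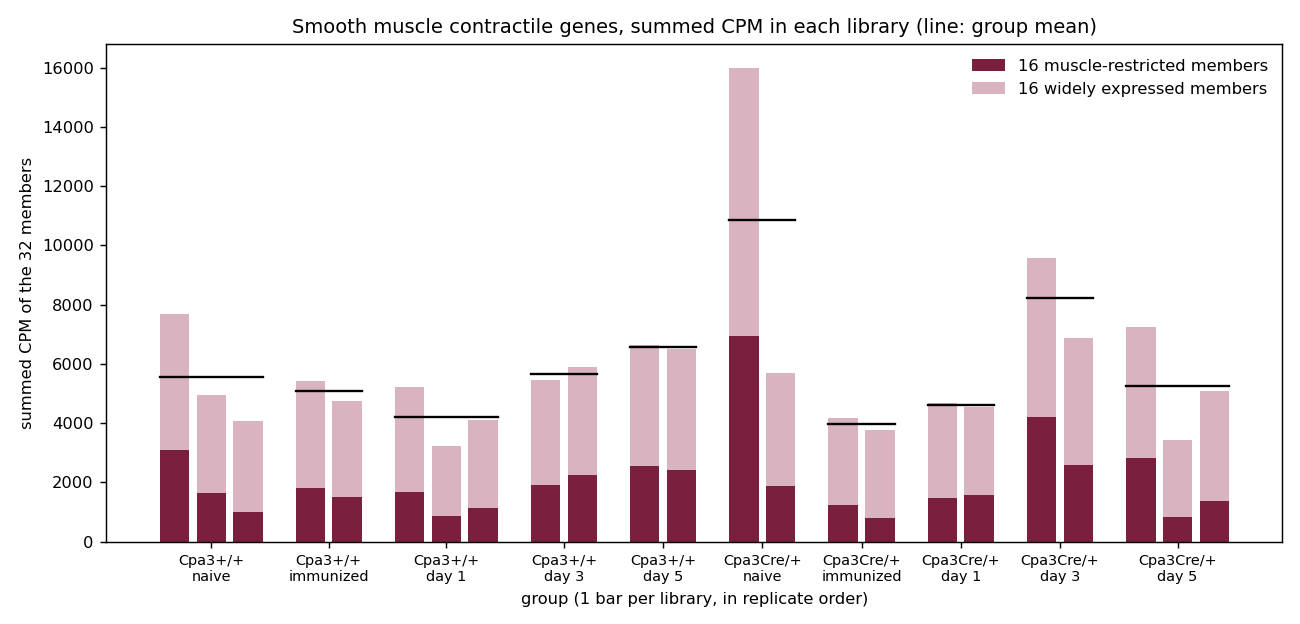
Summed level of the 32 contractile genes in each of the 23 libraries (CPM, linear axis from 0), stacked as muscle-restricted and widely expressed genes, with a line at each group's mean. The library labelled Cpa3Cre/+ naive replicate 1 reached 15994 CPM, while the other libraries lay between 3230 and 9565 CPM.

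Libraries of 1 group differed by up to 2.80-fold in the sum. Naive Cpa3+/+ libraries held 7692, 4939 and 4074 CPM, and naive Cpa3Cre/+ libraries held 15994 and 5706 CPM. After immunization the sums were 5418 and 4742 CPM in Cpa3+/+ and 4174 and 3761 CPM in Cpa3Cre/+ mice. The immunized Cpa3Cre/+ libraries were both below the immunized Cpa3+/+ libraries. On day 1 the sums were 5234, 3230 and 4111 CPM in Cpa3+/+ and 4687 and 4530 CPM in Cpa3Cre/+ mice, and the ranges overlapped. On day 3 they were 5457 and 5884 CPM in Cpa3+/+ and 9565 and 6859 CPM in Cpa3Cre/+ mice, without overlap. On day 5 the Cpa3+/+ libraries held 6622 and 6512 CPM, between the highest (7254 CPM) and the other two Cpa3Cre/+ libraries (3444 and 5078 CPM). A per-library score, the mean over the 32 genes of log2(CPM + 1) after centring each gene, had 51.4% of its variance between the 10 groups and 48.6% within them, and its pooled SD within groups was 0.54 (13 degrees of freedom).

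Divided by exonic length, the most abundant transcript was Dstn at 534 CPM per kb, followed by Myl9 at 222, Acta2 at 198, Actg2 at 135 and Tagln at 134 CPM per kb. Dstn encodes destrin, an actin-severing protein of many cell types. The least abundant per kb were Myocd at 0.313, Kcnma1 at 0.339 and Cacna1c at 0.377 CPM per kb, the genes of myocardin, of the pore of the large-conductance calcium-activated potassium channel and of the pore of the L-type calcium channel. Thin filament genes made up 50.7% of the summed CPM, myosin and its regulators 23.8% and anchorage genes 21.9%. The transcription factors and the kinase made up 2.13%, and channel and caveolar genes 1.43%. Dstn, counted with the thin filament genes, averaged 1021 of that group's 2972 CPM.

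Acta2, the gene of smooth muscle alpha-actin (chr19:34241090-34255590 on GRCm38, minus strand), is the usual marker of the tissue. Acta2 in Cpa3+/+ libraries stood at 652, 324 and 184 CPM in the naive state, at 391 and 299 after immunization, at 388, 216 and 242 on day 1, at 393 and 484 on day 3 and at 486 and 617 on day 5. Acta2 in Cpa3Cre/+ libraries stood at 1340.3 and 398 CPM in the naive state, 248 and 175 after immunization, 307 and 385 on day 1, 827 and 540.2 on day 3 and 608, 159 and 330 on day 5. The library labelled Cpa3Cre/+ naive replicate 1 was the highest of all 23, the remaining naive Cpa3Cre/+ library lay inside the Cpa3+/+ naive range, and Cpa3Cre/+ day 5 replicate 2 was the lowest. All 4 libraries of day 3 exceeded all 4 immunized ones. Actg2, the gamma-actin of enteric smooth muscle (chr6:83512905-83536265, minus strand), had a wider range. Actg2 in Cpa3+/+ libraries stood at 296, 109 and 75.1 CPM in the naive state, at 131 and 132 after immunization, at 157, 70.8 and 96.7 on day 1, at 152 and 227 on day 3 and at 257 and 248 on day 5. Actg2 in Cpa3Cre/+ libraries stood at 674 and 198 CPM in the naive state, 103 and 53.6 after immunization, 144 and 142 on day 1, 629 and 306 on day 3 and 413, 84.0 and 132 on day 5. Actg2 was highest in the same naive library, Cpa3Cre/+ day 3 replicate 1 came close to it, and both day 3 libraries of Cpa3Cre/+ mice lay above both of Cpa3+/+ mice. The lowest level was in Cpa3Cre/+ immunized replicate 2.

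Tagln encodes transgelin, an actin-bundling protein (chr9:45929619-45936058, minus strand). Tagln in Cpa3+/+ libraries stood at 385, 179.5 and 108 CPM in the naive state, at 210.1 and 167 after immunization, at 224, 114 and 121 on day 1, at 233 and 318 on day 3 and at 270.2 and 292 on day 5. Tagln in Cpa3Cre/+ libraries stood at 948 and 276 CPM in the naive state, 149.7 and 85.5 after immunization, 176 and 236 on day 1, 608 and 348 on day 3 and 335, 99.4 and 231 on day 5. For Tagln as for Actg2, the immunized Cpa3Cre/+ libraries were both below the naive ones of that genotype, and the day 3 libraries of both genotypes were above all immunized libraries. Cnn1 encodes calponin, an inhibitor of the actomyosin ATPase (chr9:22099216-22109630, plus strand). Cnn1 in Cpa3+/+ libraries stood at 144, 74.1 and 32.6 CPM in the naive state, at 74.2 and 70.0 after immunization, at 89.4, 29.3 and 42.2 on day 1, at 91.2 and 105 on day 3 and at 84.8 and 91.0 on day 5. Cnn1 in Cpa3Cre/+ libraries stood at 329.8 and 89.1 CPM in the naive state, 54.7 and 31.9 after immunization, 65.2 and 76.9 on day 1, 197 and 117 on day 3 and 132, 31.5 and 59.7 on day 5. Its lowest library was Cpa3+/+ day 1 replicate 2, and the groups of day 3 did not overlap with each other or with the immunized libraries. The other thin filament genes followed the same order of libraries more or less closely. Tpm1 and Tpm2 encode tropomyosins, Cald1 encodes caldesmon and Lmod1 encodes leiomodin, a nucleator of actin filaments. Between their lowest and highest libraries Tpm1 varied 2.87-fold, Lmod1 8.92-fold, Cald1 9.83-fold and Tpm2 12.4-fold.

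Dstn did not share that order (chr2:143915320-143943324, plus strand). Dstn in Cpa3+/+ libraries stood at 831, 816 and 1325 CPM in the naive state, at 920.1 and 965 after immunization, at 1136, 962 and 1099 on day 1, at 849.6 and 949.8 on day 3 and at 977 and 868 on day 5. Dstn in Cpa3Cre/+ libraries stood at 858 and 1317 CPM in the naive state, 959 and 1290.1 after immunization, 1003 and 690.1 on day 1, 967 and 989.7 on day 3 and 1081, 1076 and 1548 on day 5. Dstn was highest in Cpa3Cre/+ day 5 replicate 3 and lowest in Cpa3Cre/+ day 1 replicate 2, and it was not raised in the naive library in which most other genes of the set were at their highest. Its range over the 23 libraries was 2.24-fold, the narrowest of the 32 genes.

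Myh11 encodes the heavy chain of smooth muscle myosin and is held to be the most specific marker of the tissue (chr16:14194535-14291372, minus strand). Myh11 in Cpa3+/+ libraries stood at 732, 415 and 248 CPM in the naive state, at 452 and 342 after immunization, at 276, 208 and 254 on day 1, at 402 and 317 on day 3 and at 614 and 488 on day 5. Myh11 in Cpa3Cre/+ libraries stood at 1643 and 374 CPM in the naive state, 262 and 159 after immunization, 331 and 282 on day 1, 653 and 506 on day 3 and 539, 159 and 204 on day 5. The immunized Cpa3Cre/+ libraries lay below the naive and the day 3 libraries of that genotype, whereas the Cpa3+/+ groups of those states overlapped. Mylk encodes myosin light-chain kinase, the calcium-dependent switch of contraction (chr16:34745210-35002420, plus strand). Mylk in Cpa3+/+ libraries stood at 792, 606 and 508 CPM in the naive state, at 669 and 518 after immunization, at 555, 233 and 493 on day 1, at 626 and 480.1 on day 3 and at 711 and 800.4 on day 5. Mylk in Cpa3Cre/+ libraries stood at 1973 and 612 CPM in the naive state, 455 and 452 after immunization, 494 and 419 on day 1, 737 and 799.7 on day 3 and 839, 423 and 477 on day 5. Apart from its highest library, Mylk kept within a range of 233 to 839 CPM. Myl9, the regulatory light chain that this kinase phosphorylates, varied 13.1-fold between libraries, and Ppp1r12b, a targeting subunit of myosin phosphatase, varied 8.13-fold. Ppp1r14a, an inhibitor of that phosphatase, averaged 4.29 CPM and was highest in Cpa3+/+ day 3 replicate 2.

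Des encodes desmin, the intermediate filament protein of muscle (chr1:75360329-75368579, plus strand). Des in Cpa3+/+ libraries stood at 324, 171 and 93.7 CPM in the naive state, at 187 and 163 after immunization, at 215, 93.2 and 95.8 on day 1, at 279 and 418 on day 3 and at 272 and 295 on day 5. Des in Cpa3Cre/+ libraries stood at 789 and 214 CPM in the naive state, 153 and 87.6 after immunization, 157 and 197 on day 1, 752 and 342 on day 3 and 327, 74.1 and 202 on day 5. All 4 day 3 libraries held more Des than all 4 immunized libraries, and Cpa3Cre/+ day 3 replicate 1 was close to the highest library. Flna encodes filamin A, which links actin to membrane proteins in many cell types (chrX:74223461-74249820, minus strand). Flna in Cpa3+/+ libraries stood at 619, 410.2 and 194 CPM in the naive state, at 364 and 326 after immunization, at 251, 166 and 286 on day 1, at 344 and 276 on day 3 and at 444 and 385 on day 5. Flna in Cpa3Cre/+ libraries stood at 1383 and 314 CPM in the naive state, 257 and 168 after immunization, 323 and 278 on day 1, 593 and 493 on day 3 and 478, 196 and 189.7 on day 5. Flna was higher in the day 3 than in the immunized libraries of Cpa3Cre/+ mice, and the Cpa3+/+ libraries of these states overlapped. Among the rest of the anchorage genes, Synm (synemin, a partner of desmin) had the widest range, 18.4-fold, and Actn1 (alpha-actinin) the narrowest, 4.55-fold.

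Cav1 encodes caveolin, the coat protein of the membrane pits in which smooth muscle holds channels and receptors, and it is abundant in endothelium and fat as well (chr6:17306335-17341452, plus strand). Cav1 in Cpa3+/+ libraries stood at 77.7, 59.4 and 38.1 CPM in the naive state, at 62.6 and 55.1 after immunization, at 51.1, 35.7 and 35.9 on day 1, at 61.4 and 60.1 on day 3 and at 114 and 104 on day 5. Cav1 in Cpa3Cre/+ libraries stood at 194 and 42.2 CPM in the naive state, 38.5 and 30.2 after immunization, 38.8 and 52.3 on day 1, 72.6 and 57.0 on day 3 and 74.1, 51.4 and 29.7 on day 5. On day 5 both Cpa3+/+ libraries were above all 3 Cpa3Cre/+ libraries. Dmpk encodes myotonic dystrophy protein kinase (chr7:19083849-19093821, plus strand). Dmpk in Cpa3+/+ libraries stood at 162, 101 and 36.4 CPM in the naive state, at 86.1 and 76.9 after immunization, at 80.8, 29.9 and 45.2 on day 1, at 132 and 126 on day 3 and at 88.1 and 95.9 on day 5. Dmpk in Cpa3Cre/+ libraries stood at 295 and 73.2 CPM in the naive state, 72.9 and 41.8 after immunization, 74.0 and 86.9 on day 1, 166 and 121 on day 3 and 85.3, 23.3 and 60.8 on day 5. Dmpk was higher on day 3 than after immunization in every library of the 2 states, and on day 5 it was lower in all 3 Cpa3Cre/+ libraries than in both Cpa3+/+ libraries. Kcnmb1 and Kcnma1, the regulatory and pore subunits of the calcium-activated potassium channel, averaged 7.72 and 5.75 CPM, and Myocd averaged 2.01 CPM with as few as 3 counts in 1 library. The fewest counts over all libraries were those of Myocd (565), Ppp1r14a (1235), Kcnma1 (1622), Kcnmb1 (2236) and Cacna1c (2269).

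**Figure D2:**
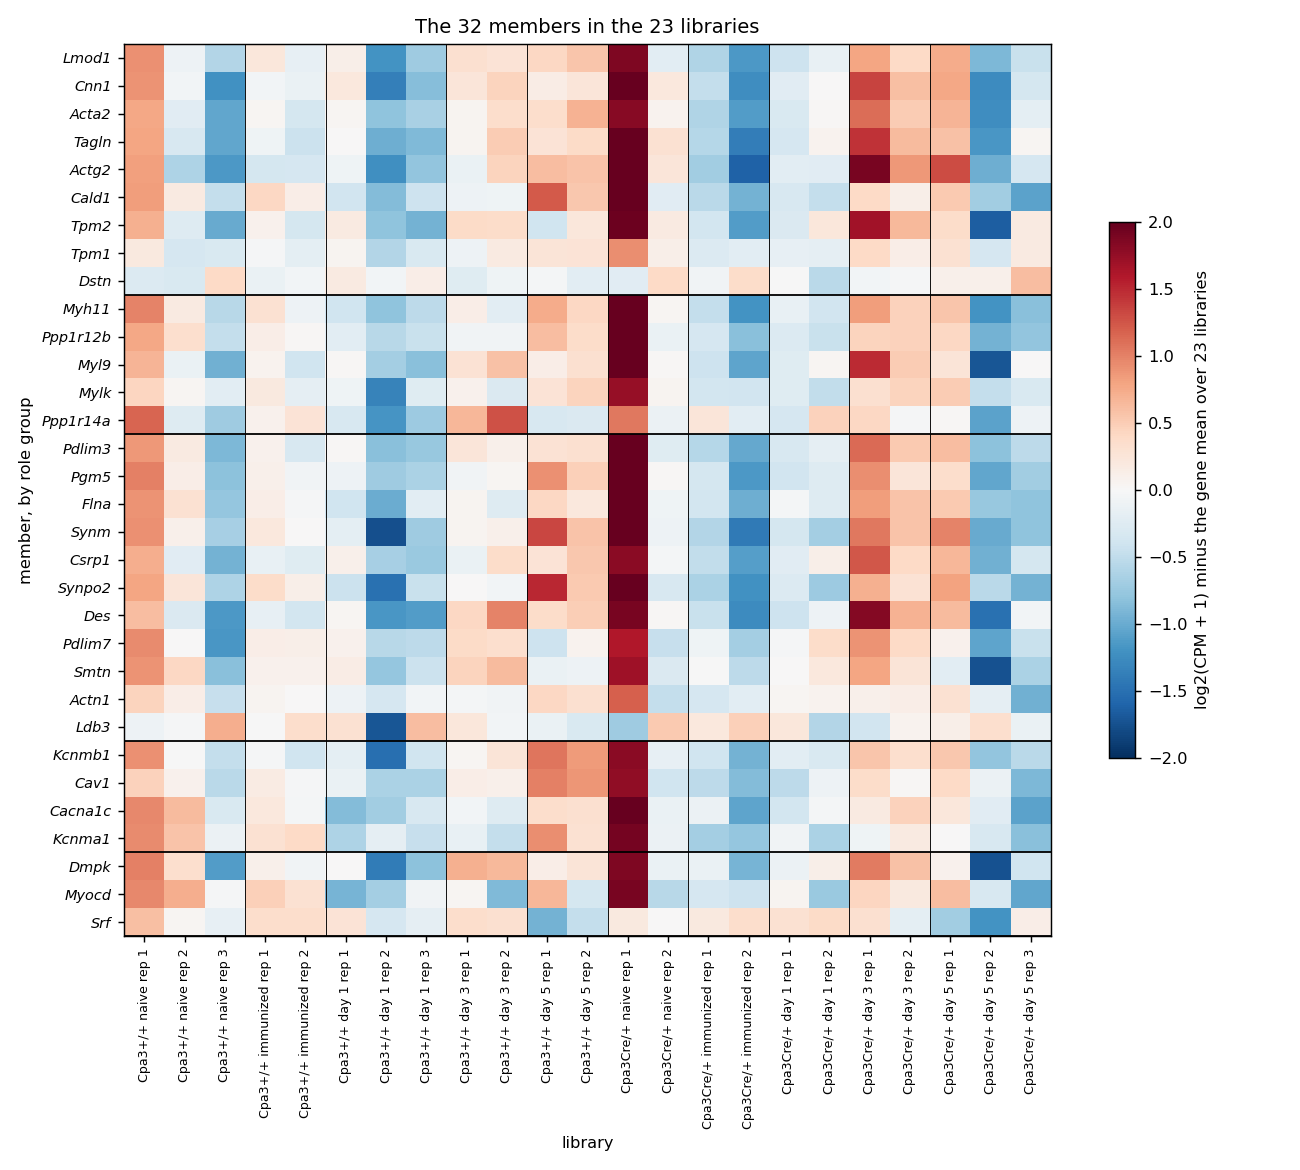
Level of each of the 32 genes in each of the 23 libraries, as log2(CPM + 1) minus the gene's mean over all libraries, with genes ordered by role and libraries by group. The colour scale ends at -2 and 2, and 28 of the 32 genes were highest in the column of the library labelled Cpa3Cre/+ naive replicate 1, the exceptions being Dstn, Ldb3, Srf and Ppp1r14a.

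Across the 23 libraries the genes moved together. For 25 of the 32 genes, Pearson's r with the mean of the other 31 was above 0.8, and the median r over the 496 pairs of genes was 0.81. After the group means were taken out the median was 0.83, so the covariation was as close among libraries of the same group. These values are descriptions over 23 libraries that share composition and depth, and no p-value is given. Closest to the rest were Pdlim3 and Lmod1, each with r = 0.98, and Pgm5 and Myh11, each with r = 0.97. Pdlim3 encodes a PDZ and LIM domain protein of the muscle Z-line and Pgm5 encodes aciculin, a protein of actin attachment sites. Farthest from the rest were Dstn with r = -0.47, Ldb3 with r = -0.24 and Srf with r = 0.18. Of the 32 genes 28 had their highest level in the library labelled Cpa3Cre/+ naive replicate 1, the exceptions being Dstn, Ldb3, Srf and Ppp1r14a. The lowest level fell in Cpa3+/+ day 1 replicate 2 for 10 genes, in Cpa3Cre/+ day 5 replicate 2 for 9, in Cpa3Cre/+ day 5 replicate 3 for 6 and in Cpa3Cre/+ immunized replicate 2 for 5.

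Ldb3, which encodes a PDZ and LIM domain protein best known from the Z-disc of striated muscle, ran from 17.4 CPM in Cpa3+/+ day 1 replicate 2 to 99.2 CPM in Cpa3+/+ naive replicate 3. It stood at 36.0 CPM in the library labelled Cpa3Cre/+ naive replicate 1, among its lower values. Srf ran from 11.6 to 42.8 CPM with the highest level in Cpa3+/+ naive replicate 1, and its values are given with the comparison of day 5.

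The length of a transcript also entered the pattern. A slope of log2 level on log2 exonic length, taken over 11078 genes in no list, ran from -0.207 in Cpa3Cre/+ day 5 replicate 3 to 0.176 in Cpa3+/+ day 5 replicate 1. The difference between the 8 longest contractile genes (Cald1, Mylk, Ppp1r12b, Synm, Synpo2, Flna, Kcnma1 and Cacna1c) and the 8 shortest (Acta2, Actg2, Tagln, Cnn1, Dstn, Myl9, Ppp1r14a and Csrp1) ran from -0.74 to 0.65 on the log2 scale in the same 2 libraries and had r = 0.96 with that slope over the 23 libraries. The score over all 32 genes had r = 0.20 with the slope. On day 5 the slopes were 0.176 and -0.010 in Cpa3+/+ and 0.051, 0.083 and -0.207 in Cpa3Cre/+ libraries, and the comparison of the genotypes on that day is given with and without the slope in the model.

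SRF binding sites were looked for in the promoters of the set, since SRF is known to act through CArG boxes at many of these genes. Of the 32 genes 28 were in the RefSeq promoter table of GRCm38.p6, and the 250 bases before each start were searched for the CArG box, a pair of C and a pair of G bases with A or T bases between them. The box reads as a CArG box on both strands. An exact box was found in 3 of the 28 genes (10.7%), namely Myl9, Ldb3 and Srf, and in 439 of the 27025 genes of the table (1.62%). With 1 base of the A or T stretch allowed to differ, a box was found in 8 of the 28 genes (28.6%), against 9.78% of all genes. The 5 further genes were Acta2, Cacna1c, Dstn, Pdlim3 and Synm. A match is a string of letters and says nothing on binding in these samples. The 5 promoters below are shown because they hold boxes and because the genes behave differently: Acta2 and Myl9 follow the rest of the set, while Srf, Ldb3 and Dstn do not. Each is given 5′ to 3′ on the strand of the gene, with the boxes in capitals. Acta2 is from chr19:34255374-34255623 (minus strand), with boxes that differ in 1 base and begin 84 and 34 bases before the start. Myl9 is from chr2:156775214-156775463 (plus strand), with an exact box 161 bases and a box with 1 difference 99 bases before the start. Srf is from chr17:46556163-46556412 (minus strand), with 2 exact boxes 82 and 62 bases before the start. Ldb3 is from chr14:34588682-34588931 (minus strand), with an exact box 35 bases before the start. Dstn is from chr2:143915081-143915330 (plus strand), with 1 box with 1 difference 106 bases before the start.
Acta2: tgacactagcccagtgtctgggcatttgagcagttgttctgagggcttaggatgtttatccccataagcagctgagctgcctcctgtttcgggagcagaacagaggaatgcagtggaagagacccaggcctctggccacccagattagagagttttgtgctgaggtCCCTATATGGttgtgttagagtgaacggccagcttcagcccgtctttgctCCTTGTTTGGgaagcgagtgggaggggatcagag
Myl9: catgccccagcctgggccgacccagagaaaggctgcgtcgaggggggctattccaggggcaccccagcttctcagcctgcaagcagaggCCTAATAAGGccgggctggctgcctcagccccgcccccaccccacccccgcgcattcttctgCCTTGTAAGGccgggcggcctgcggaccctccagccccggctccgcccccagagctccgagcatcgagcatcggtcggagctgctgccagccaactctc
Srf: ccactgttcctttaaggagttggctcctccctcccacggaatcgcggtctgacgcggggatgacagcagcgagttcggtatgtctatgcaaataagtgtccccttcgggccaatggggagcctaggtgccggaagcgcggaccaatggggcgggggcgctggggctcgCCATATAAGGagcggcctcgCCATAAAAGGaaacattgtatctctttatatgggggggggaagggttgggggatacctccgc
Ldb3: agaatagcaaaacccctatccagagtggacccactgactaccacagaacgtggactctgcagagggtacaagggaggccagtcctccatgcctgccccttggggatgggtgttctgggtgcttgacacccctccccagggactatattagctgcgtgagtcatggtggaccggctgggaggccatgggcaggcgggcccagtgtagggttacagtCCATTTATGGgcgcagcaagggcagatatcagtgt
Dstn: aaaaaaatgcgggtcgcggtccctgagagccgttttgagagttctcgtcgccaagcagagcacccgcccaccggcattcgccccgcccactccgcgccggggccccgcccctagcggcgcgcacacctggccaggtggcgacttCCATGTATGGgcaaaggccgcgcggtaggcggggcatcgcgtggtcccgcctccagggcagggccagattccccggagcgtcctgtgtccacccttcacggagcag

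Levels in naive mice of the 2 genotypes were compared first. The contractile genes tended to higher values in the Cpa3Cre/+ group: 30 of the 32 fitted log2 fold changes were positive, with a median of 1.03, against a median of 0.05 over all 17236 genes. The fold changes are adjusted for the sex of the mouse. None of the 32 passed edgeR's quasi-likelihood test with Benjamini-Hochberg adjustment over all genes, nor did any other gene (0% called). At an unadjusted p under 0.05, 19 of the 32 were higher, and 4.13% of all genes were. DESeq2 called none of the 32. The smallest p belonged to Tagln, with a log2 fold change of 1.49 ± 0.53 (SE) and adjusted p = 0.900 in edgeR's test, followed by Tpm1 at 0.73 ± 0.28, Myl9 at 1.34 ± 0.52 and Actg2 at 1.51 ± 0.60. Thin filament genes had a median of 1.22 and 7 of 9 at an unadjusted p under 0.05, the anchorage genes a median of 1.11 and 7 of 11, and the myosin group a median of 1.03 and 4 of 5. The result rested on 1 library: without the library labelled Cpa3Cre/+ naive replicate 1 the median was -0.07, 14 genes were positive, 18 were negative and none had an unadjusted p under 0.05. Without Cpa3+/+ naive replicate 2 the count at an unadjusted p was 1, and without Cpa3+/+ naive replicate 3 it was 0 with a median of 0.77, so it hung on single Cpa3+/+ libraries as well. In that same Cpa3Cre/+ library the absorptive enterocyte genes summed to 10348 CPM, against 25552 to 104074 CPM in the other libraries. Across the naive comparison all 12 enterocyte genes had negative fold changes (median -0.68), all 16 enteric neuron genes positive ones (median 1.00) and all 5 mesothelium genes positive ones (median 2.15), none past the adjusted threshold. Whether these tissue shares account for the contractile genes was not tested.

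Immunization was compared with the naive state. In both genotypes pooled, 29 of 32 genes had negative fold changes with a median of -1.03, against -0.03 over all genes. No gene passed the adjusted threshold (0% called), and 22 of the 32 had an unadjusted p under 0.05 and were lower, against 7.01% of all genes. Kcnma1 gave the smallest p, with -1.22 ± 0.34 on the log2 scale (edgeR, adjusted p = 0.377), then Tagln at -1.25 ± 0.41, Ppp1r12b at -1.01 ± 0.33 and Pdlim3 at -1.16 ± 0.38. Kcnma1 stood at 10.6, 7.92 and 4.55 CPM in naive and 6.42 and 6.89 CPM in immunized Cpa3+/+ libraries, and at 21.6 and 4.53 against 2.77 and 2.52 CPM in Cpa3Cre/+ libraries. The groups overlapped in Cpa3+/+ mice and were apart in Cpa3Cre/+ mice. Within Cpa3Cre/+ mice the median was -1.74, 24 genes had an unadjusted p under 0.05 and were lower against 8.64% of all genes, and again none passed the adjusted threshold in edgeR (0% called), while DESeq2 called 1, Kcnma1. The smallest p-values were those of Kcnma1 at -2.06 ± 0.52, Tagln at -2.13 ± 0.63, Cald1 at -1.89 ± 0.57 and Ppp1r12b at -1.67 ± 0.51 (edgeR, adjusted p = 0.303 for each). Within Cpa3+/+ mice the median was -0.31, and none of the 32 was called by either tool or had an unadjusted p under 0.05 (0% of all genes called). The difference between the genotypes had a median of -1.38, with 5 genes at an unadjusted p under 0.05 against 2.19% of all genes and 0% called (DESeq2 called none of the 32). That count of 5 ran from 0 to 25 when single libraries were left out.

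These values also rested on the library labelled Cpa3Cre/+ naive replicate 1. Without it the medians were -0.46 in both genotypes together, -0.69 within Cpa3Cre/+ mice and -0.40 for the difference between genotypes, and no contractile gene had an unadjusted p under 0.05 in any of the 3. With both genotypes together 31 of 32 genes were negative in that refit. Without Cpa3Cre/+ naive replicate 2 the opposite held, and 11 of the 32 genes passed the adjusted threshold in both genotypes together, where 3.45% of all genes did, and 21 within Cpa3Cre/+ mice, where 11.1% did. Without Cpa3Cre/+ immunized replicate 2, 1 gene had an unadjusted p under 0.05 in each of these 2 comparisons, and without Cpa3+/+ immunized replicate 2, 14 did in both genotypes together. When the filter on low counts was dropped and 32067 genes were fitted, 22 of the 32 passed the adjusted threshold in both genotypes together (1.80% of all genes) and 23 within Cpa3Cre/+ mice (2.42%). When only the female libraries were fitted, 22 and 24 of the 32 passed, against 5.46% and 6.88% of all genes. Within Cpa3Cre/+ mice that fit sets 1 library against 1, the library labelled naive replicate 1 against immunized replicate 2, and the lone libraries are assumed to vary like the other groups. Enteric neuron genes had a median of -1.18 in the comparison of both genotypes (16 of 16 negative), absorptive enterocyte genes 0.48 (10 of 12 positive) and B cell follicle genes 2.60 (8 of 8 positive), none past the adjusted threshold. Their part in the result was not tested.

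The challenge was compared with the immunized state, and these comparisons share the immunized libraries with each other and with the comparison above. On day 1 no contractile gene was called by edgeR or DESeq2 in either genotype or in both together, none had an unadjusted p under 0.05, and none of the 17236 genes was called (0%). The median was -0.07 with both genotypes together, -0.45 in Cpa3+/+ mice with 31 of 32 genes negative, and 0.40 in Cpa3Cre/+ mice. The difference between the genotypes had a median of 0.96, and none of the 32 was called by either tool or had an unadjusted p under 0.05 (0% of all genes called).

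On day 3, 28 of 32 genes were higher than after immunization in both genotypes together, with a median of 0.58 against 0.04 over all genes. None passed the adjusted threshold (0% called), and 10 genes had an unadjusted p under 0.05, against 4.71% of all genes. Des led with a log2 difference of 1.48 ± 0.46 (adjusted p = 0.483, edgeR), Actg2 one of 1.44 ± 0.49, Tagln one of 1.21 ± 0.42 and Myl9 one of 1.10 ± 0.42. For Des, Actg2 and Tagln, which are named for their small p in this comparison, all 4 libraries of day 3 lay above all 4 immunized libraries. For Myh11, Mylk and Flna the 2 states overlapped. The share of all genes with such a separation was not counted. Within Cpa3Cre/+ mice the median was 1.19, 15 genes had an unadjusted p under 0.05 against 2.58% of all genes, and 0% were called. There Actg2 was at 2.35 ± 0.71, a 5.08-fold difference, Tagln at 1.87 ± 0.61, Des at 1.95 ± 0.67 and Pdlim3 at 1.55 ± 0.56 (edgeR, adjusted p = 0.930 for each). In Cpa3+/+ mice the median was 0.10, and none of the 32 was called or had an unadjusted p under 0.05 (0% of all genes called). The difference between the genotypes had a median of 1.17, and none was called by either tool (0%). Of the 32 genes, Kcnma1 alone had an unadjusted p under 0.05, with 1.79 ± 0.71. No share of all genes is set beside this single gene, and it is not read as a result. Without the library labelled Cpa3Cre/+ naive replicate 1 the median of that difference was 1.23.

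The counts at an unadjusted p in this paragraph have no share of all genes beside them. They show only how the result hangs on single libraries. The day 3 result depended on Cpa3Cre/+ immunized replicate 2. Without it, 1 gene had an unadjusted p under 0.05 in both genotypes together (median 0.26) and none did within Cpa3Cre/+ mice (median 0.57). Without Cpa3Cre/+ immunized replicate 1 the 2 counts were 20 and 24, and without the library labelled Cpa3Cre/+ naive replicate 1 they were 11 and 21. In both genotypes together the count was 3 without Cpa3+/+ immunized replicate 2, 5 without Cpa3Cre/+ day 3 replicate 1 and 6 without either replicate 2 of day 3, and within Cpa3Cre/+ mice it was 7 without Cpa3Cre/+ day 3 replicate 2. Cpa3Cre/+ immunized replicate 2 was among the 3 libraries with the highest sums of B cell follicle genes, at 112 CPM, against 20.3 CPM in the other immunized library of that genotype and 9.91 to 14.5 CPM in the 4 libraries of day 3. All 8 follicle genes had negative fold changes in this comparison, with a median of -4.26, and without the 3 libraries no contractile gene had an unadjusted p under 0.05. That fit leaves 1 library in each immunized group. In Cpa3+/+ mice, immunized replicate 1 held 134 CPM of follicle genes and 5418 CPM of contractile genes. Immunized replicate 2 of that genotype held 9.41 and 4742 CPM, so the library richer in follicle genes had the higher contractile sum there. Whether the follicle content of the immunized samples accounts for their lower contractile genes was not tested.

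Between the genotypes, the contractile genes had a median log2 fold change of -0.21 in immunized mice, 0.69 on day 1, 0.86 on day 3 and -0.51 on day 5, with 0% of genes called in each by edgeR and none of the 32 by DESeq2. In immunized mice and on day 1 none of the 32 had an unadjusted p under 0.05. On day 3 Actg2 was 2.98-fold higher in Cpa3Cre/+ mice (log2 1.58 ± 0.70, edgeR, adjusted p = 1.00), and it was the only contractile gene with an unadjusted p under 0.05. A single gene without a share of all genes beside it is not read as a result. On day 5, 29 of 32 genes were lower in Cpa3Cre/+ mice and 5 had an unadjusted p under 0.05, against 3.57% of all genes. The 4 with the smallest p were Kcnma1 at -1.16 ± 0.44, Cav1 at -1.08 ± 0.41, Cald1 at -1.17 ± 0.48 and Kcnmb1 at -1.23 ± 0.55 (edgeR, adjusted p = 0.524 for each). With the length slope as a further covariate 1 gene was lower at an unadjusted p under 0.05, against 3.02% of all genes. The median over the 32 genes was then -0.54. The counts that follow, without single libraries, have no share beside them and show only the dependence on those libraries. Leaving out Cpa3+/+ day 5 replicate 1 or Cpa3Cre/+ day 5 replicate 3 brought the count to 0. Leaving out Cpa3Cre/+ day 5 replicate 2 gave 2, Cpa3Cre/+ day 5 replicate 1 gave 14, and omission of naive replicate 2 of that genotype gave 8. Averaged over the 5 states, 30 of 32 genes were positive with a median of 0.29, none passed the adjusted threshold and none had an unadjusted p under 0.05, while 0.029% of all genes were called. Without the library labelled Cpa3Cre/+ naive replicate 1 that median was 0.02.

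**Figure D3:**
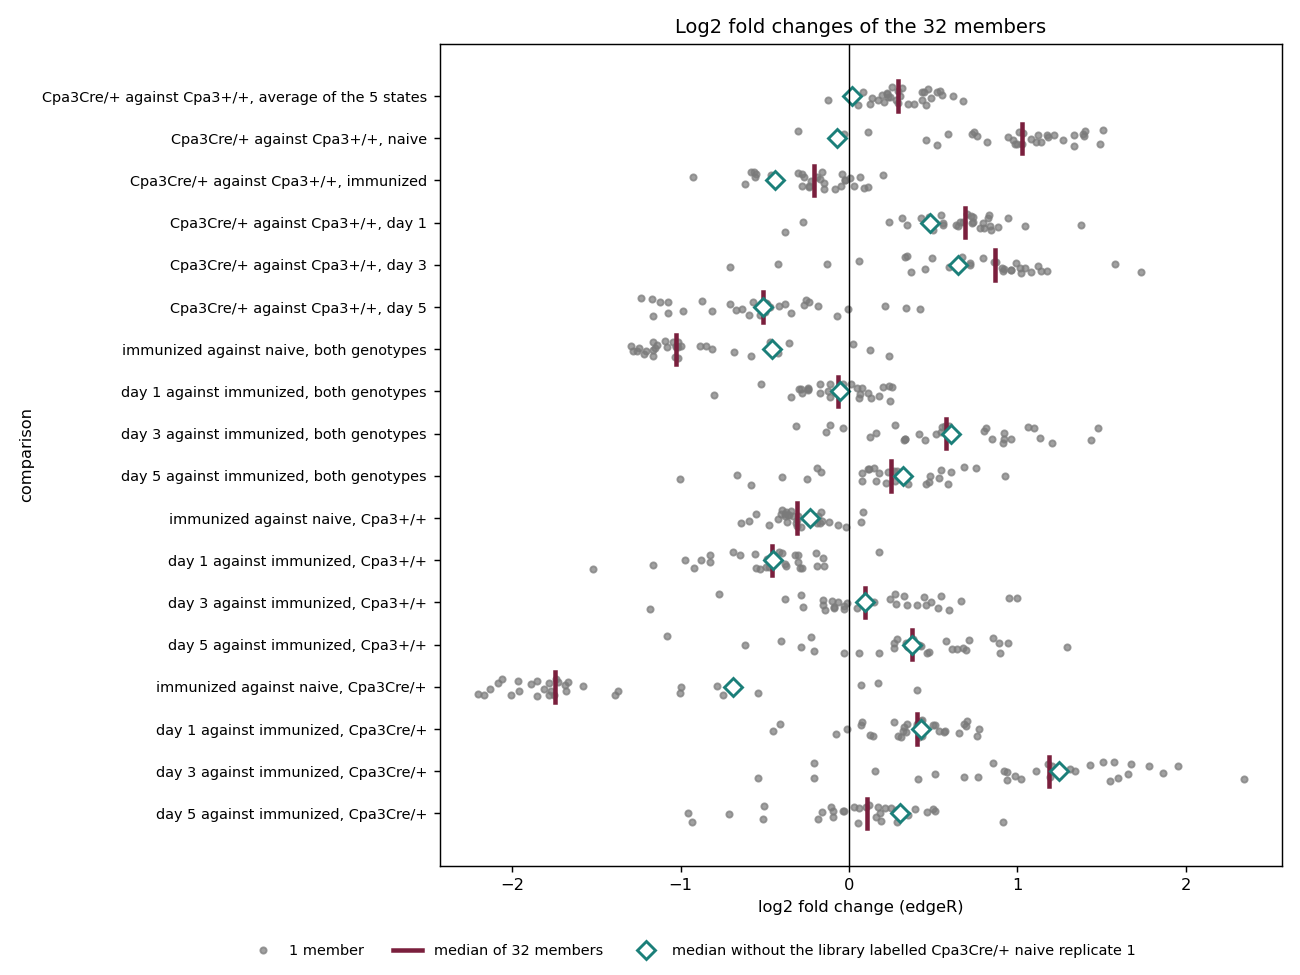
Log2 fold change of each of the 32 genes (dots) in 18 comparisons, with the median of the set and, as an open diamond, the median without the library labelled Cpa3Cre/+ naive replicate 1. In naive mice the median moves from 1.03 to -0.07 when that library is left out, and on day 3 against immunized Cpa3Cre/+ mice it is 1.19 with and 1.25 without it.

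On day 5 a single gene of the set passed the threshold. Srf, the gene of serum response factor (chr17:46548329-46556175, minus strand), was lower on day 5 than after immunization in both genotypes together. In that comparison 1.94% of all genes were called, and a single call among 32 genes is close to that share. The call thus describes Srf and not the set. Srf in Cpa3+/+ libraries stood at 42.8, 28.6 and 24.8 CPM in the naive state, at 35.6 and 35.7 after immunization, at 33.8, 21.8 and 24.5 on day 1, at 35.8 and 34.9 on day 3 and at 13.9 and 19.8 on day 5. Srf in Cpa3Cre/+ libraries stood at 32.2 and 28.1 CPM in the naive state, 32.2 and 35.7 after immunization, 34.4 and 36.5 on day 1, 35.2 and 24.3 on day 3 and 16.7, 11.6 and 30.6 on day 5. All 5 libraries of day 5 lay below all 4 immunized libraries, from which they were separated by 30.6 CPM in Cpa3Cre/+ day 5 replicate 3 against 32.2 CPM in Cpa3Cre/+ immunized replicate 1. Srf is shown because it passed in this comparison, so the separation adds no support of its own. The share of all genes with such a separation was not counted. The log2 fold change was -1.005 ± 0.24, a 2.01-fold fall (edgeR, adjusted p = 0.0375), and DESeq2 called Srf as well. Within each genotype the size was similar, -1.08 ± 0.35 in Cpa3+/+ and -0.93 ± 0.33 in Cpa3Cre/+ mice, without passing the adjusted threshold (edgeR, adjusted p = 0.340 and 0.341), and 0% and 0.0348% of all genes were called in these 2 comparisons. The difference between the genotypes was 0.15 ± 0.48, with 0% called. The call is close to the threshold: leaving out each of the 23 libraries in turn, Srf passed in 12 refits and missed in 11, with adjusted p from 0.00095 to 0.149 and a log2 fold change between -1.25 and -0.89. Among 11 other settings it passed under 8. Those that ended the call include the fit of female libraries alone, with a log2 fold change of -0.99. Another was the fit without the 3 libraries with the highest sums of B cell follicle genes, with -1.10. Both fits left 1 library in the Cpa3Cre/+ immunized group. No other contractile gene passed the threshold in this comparison, and the median over the 32 genes was 0.25. The naive libraries held 24.8 to 42.8 CPM of Srf and overlapped with those of day 5.

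The genes around Srf were read from a list of 50 further genes of the muscle pathway that are not in the set of 32. In the day 5 comparison 3 of the 50 passed the threshold, against 1.94% of all genes, and all 3 were lower: Myh9, Tln1 and Mrtfa. They are shown because they passed, so a separation of the same libraries adds no support of its own. The share of all genes with such a separation was not counted. Mrtfa encodes a coactivator of SRF that is held in the cytoplasm by actin monomers. Mrtfa in Cpa3+/+ libraries stood at 29.1, 26.5 and 18.8 CPM in the naive state, at 29.0 and 28.7 after immunization, at 24.5, 23.7 and 23.9 on day 1, at 26.3 and 31.7 on day 3 and at 15.1 and 20.7 on day 5. Mrtfa in Cpa3Cre/+ libraries stood at 19.5 and 16.8 CPM in the naive state, 28.5 and 31.8 after immunization, 29.7 and 31.7 on day 1, 27.5 and 22.8 on day 3 and 15.6, 13.8 and 23.1 on day 5. On day 5 all libraries lay below all immunized ones, with a log2 difference of -0.80 ± 0.17 (edgeR, adjusted p = 0.0216). Myh9 encodes the heavy chain of non-muscle myosin IIA, and its immunized libraries held 334 and 414 CPM in Cpa3+/+ and 391 and 418 CPM in Cpa3Cre/+ mice. Its day 5 libraries held 207 and 217 CPM in Cpa3+/+ and 242, 221 and 205 CPM in Cpa3Cre/+ mice. The 2 states did not overlap, and the log2 fold change was -0.86 ± 0.17 (edgeR, adjusted p = 0.0164). Tln1 encodes talin, which links integrins to actin, and ran from 147 to 166 CPM after immunization and from 78.3 to 104 CPM on day 5, also without overlap (log2 fold change -0.80 ± 0.16, edgeR, adjusted p = 0.0175). The naive libraries of the 3 genes reached down to 213, 105 and 16.8 CPM for Myh9, Tln1 and Mrtfa, so that for Myh9 and Mrtfa the naive and day 5 ranges overlapped while for Tln1 they did not. Leaving out each library in turn, Myh9 and Tln1 passed in 18 of 23 refits and Mrtfa in 17, and each of the 3 genes passed under 9 of 11 other settings. Myocd, the muscle-restricted coactivator of SRF, had a log2 fold change of -0.19 ± 0.63 and was not called. Smooth muscle and other cells of the wall all use SRF, MRTF, talin and non-muscle myosin, and the cell type in which the levels fell cannot be read from whole tissue.

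In the other comparisons edgeR called none of these 50 genes. Counts at an unadjusted p under 0.05 follow for 3 of these comparisons. For immunized against naive in both genotypes 20 were lower, against 7.01% of all genes, and 2 higher, with a median of -0.44. The smallest p belonged to Ryr2, the calcium release channel of internal stores, at -1.76 ± 0.45, and to Tacr2, the neurokinin receptor through which tachykinins contract gut muscle, at -1.73 ± 0.48 (edgeR, adjusted p = 0.377 for both). Pln, the regulator of the calcium pump, was at -1.62 ± 0.49, and Myh9 was on the opposite side at 0.56 ± 0.16. In naive mice 11 of the 50 were higher in Cpa3Cre/+ mice, against 4.13% of all genes, and 1 was lower, with a median of 0.54. On day 3 in Cpa3Cre/+ mice 7 were higher, against 2.58% of all genes, and 1 was lower, with a median of 0.36. Itga5, an integrin subunit, was at 1.78 ± 0.51 there, and the small heat shock protein genes Hspb7 and Hspb1 were at 1.61 ± 0.60 and 1.65 ± 0.64, while the 1 lower gene was again Myh9 at -0.64 ± 0.24 (edgeR, adjusted p = 0.930 for each).

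**Figure D4:**
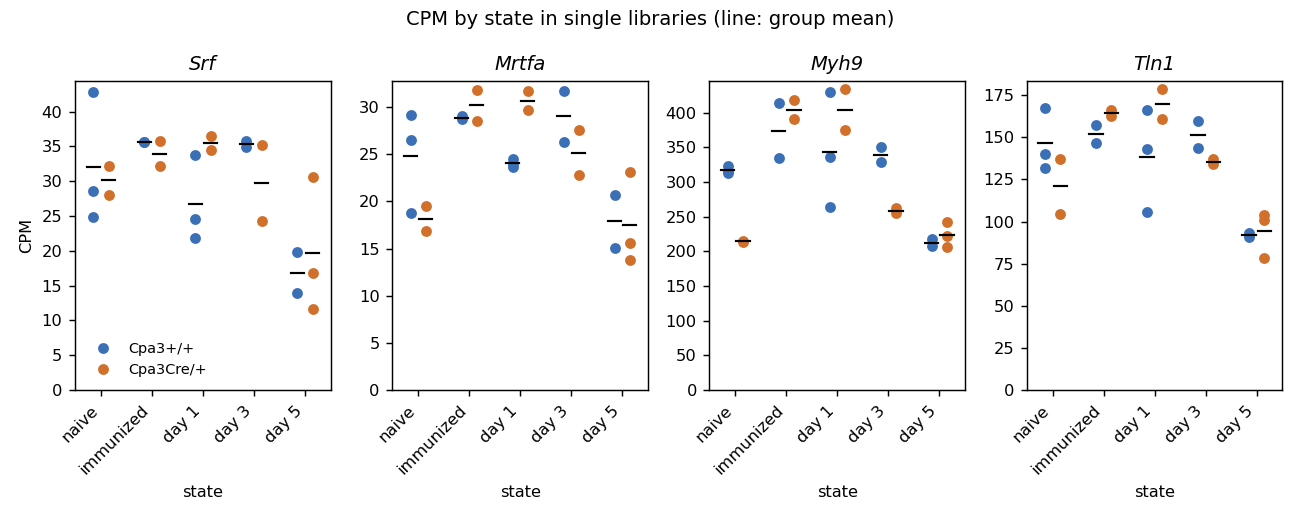
Level of Srf, Mrtfa, Myh9 and Tln1 (CPM, linear axes from 0) in each library by state, with Cpa3+/+ and Cpa3Cre/+ libraries marked. For Srf the immunized libraries lie between 32.2 and 35.7 CPM and the day 5 libraries between 11.6 and 30.6 CPM.

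The 32 genes were set beside lists of genes of the other cell types in the intestinal wall, as the r of the score with each list's mean standardised level over the 23 libraries. The 50 other muscle pathway genes had r = 0.92, enteric neurons 0.90, enteric glia 0.86, interstitial cells of Cajal 0.83, pericytes 0.83, skeletal and cardiac muscle 0.76 (5 of 12 genes measured), fibroblasts and matrix 0.72 and endothelium 0.55. Enteric neurons, glia and interstitial cells of Cajal lie between or within the muscle layers. Absorptive enterocyte genes had r = -0.77, general epithelial genes -0.48 and B cell follicle genes -0.09. Of 8 fat cell genes 3 passed the filter (Cidec, Pparg and Car3, r = -0.58 as a list), and the defining genes Adipoq, Plin1 and Lep had no count in 17, 13 and 23 libraries. With the 2 libraries farthest from the median score left out, r was 0.84 for enteric neurons and 0.71 for skeletal and cardiac muscle. It was then -0.60 for enterocytes, 0.30 for endothelium and -0.24 for epithelium. For the other muscle pathway genes it was 0.85, for glia 0.83, for interstitial cells of Cajal 0.67, for pericytes 0.72 and for fibroblasts 0.58. For fat cell and B cell follicle genes it was -0.38 and -0.12. The points share the library scale, in which a larger share of 1 tissue makes the others smaller. The r of the score with log2 total count was -0.47, and with the mitochondrial share of counts -0.07.

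**Figure D5:**
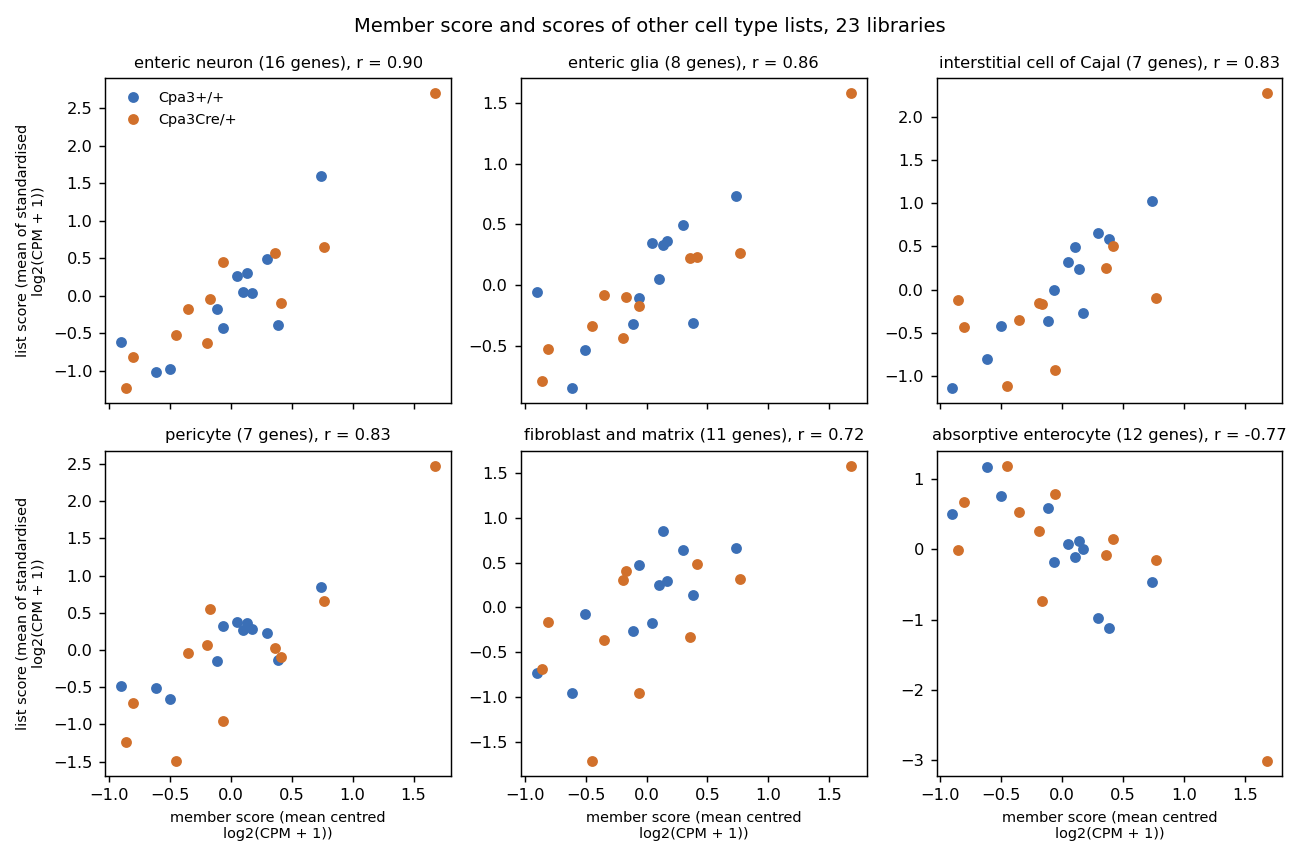
Mean standardised level of 6 gene lists of other cell types against the score of the 32 contractile genes, with 1 point per library (n = 23) and r in each panel. The library labelled Cpa3Cre/+ naive replicate 1 is the point farthest to the right, and the score had r = 0.90 with enteric neuron genes and r = -0.77 with absorptive enterocyte genes.

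Among 13248 genes with a mean of at least 1 CPM and in no list, Flnc had the pattern most like the contractile genes, with r = 0.98 over the 23 libraries. It encodes filamin C, the muscle form of filamin, and ran from 6.11 to 56.9 CPM. The next were Slc6a17 and Calhm5 with 0.97 and 0.96, Eml1, Pcp4l1, Slc24a3 and Klhl23 with 0.96 each, and Nxn, Plin4 and Grem1 with 0.95 each. Grem1, which encodes a secreted inhibitor of bone morphogenetic proteins, had r = 0.99 after the group means were taken out. In all 414 genes had r above 0.8, and 156 did without the 2 libraries farthest from the median. The most opposite genes were Ugt1a7c with -0.84, Afg3l2 and Tfg with -0.83, Slc30a10 with -0.82, and Sec24c, Slc35d1, Etfdh, Slc25a51, Sec22c and Prkcd with -0.81. Ugt1a7c encodes a glucuronosyltransferase and Slc30a10 a manganese exporter, and 13 genes had r below -0.8.

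Reads of some contractile genes can overlap those of other genes on the opposite strand, and the strand setting of the counting is not given in the sources used here. Smtn, the smoothelin gene, had 18174 counts in all libraries and its antisense neighbour Gm11946 had 4963. Tagln had 77491 counts, beside 1420 of Gm48529 and 16075 of Pcsk7, and Synm had 19666 beside 3720 of Ttc23. For the other 29 genes no overlapping gene held more than 37 counts.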

How the data were processed

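Total RNA of whole jejunum was sequenced from TruSeq stranded libraries, per the labels' protocols. The deposited table holds raw counts per Ensembl gene. The authors' processing used STAR and featureCounts of Subread 1.5.1 on mouse builds mm10 and GRCm38, per the submitters' processing notes. The STAR version, the annotation release and the strand setting are not given in the sources used here. Nothing in the labels says whether animals were pooled, so the p-values reflect only how much these 23 libraries vary. Female and male libraries occur together in the groups Cpa3+/+ naive and Cpa3Cre/+ naive, immunized, day 1 and day 3. Libraries of different sex in these groups came from different mice. For libraries of the same sex the labels do not say so, and whether their variation is technical was not tested.

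Gene symbols were taken from GENCODE vM21, which left 260 of 55487 genes without one. Levels are CPM with TMM scaling. Genes that passed filterByExpr were fitted with edgeR 4.0.16 (R 4.3.3): robust quasi-likelihood, 10 group means and sex, all 23 libraries (12 residual degrees of freedom, biological coefficient of variation 28.6%), 22 contrasts, Benjamini-Hochberg adjustment over 17236 genes and a threshold of 0.05. The standard error of a log2 fold change was taken from it and its F statistic. Fitting was tested on simulated counts. Total counts of 5.48 M to 19.3 M (M for 1000000) set the precision, and no pair of replicates was close enough to be 1 library deposited again (smallest chi-square per gene 13.6).

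The 32 genes and the other lists were chosen with earlier results of these data known. Values in each library are given for Acta2, Actg2, Tagln, Myh11, Des and Cnn1, and for the most abundant further gene of each role. For each comparison up to 4 genes with the smallest p are named. Genes most and least like the set were the 10 at each end of Pearson's r, without predicted, Y-linked and X-inactivation genes. Kcnma1 and the day 5 values of Srf and of the 3 called pathway genes were added after their values were seen. Scores use log2(CPM + 1).

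Replicate numbers did not pair the libraries (same-number r of -0.424 to 0.639 over 93 pairs). The alternatives were DESeq2 size factors, scaling by total counts, no filter, DESeq2 1.42.0, no sex term, female libraries only, a replicate block, muscle-restricted genes only and each library left out. Chosen after seeing the data were a length slope covariate and 2 sets of left-out libraries, namely the 2 ends of the first principal component and the 3 with the highest B cell follicle sums.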

Additional observations from a re-analysis of the deposited data

How the results depend on the processing

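Over 34 alternatives no called result changed sign, while several medians without calls did. The call of Srf is near the threshold, and most counts at an unadjusted p under 0.05 rest on single libraries of groups of 2 or 3, in particular the library labelled Cpa3Cre/+ naive replicate 1 and Cpa3Cre/+ immunized replicate 2. Where an omission leaves a group with 1 library, that library is assumed to vary like the other groups. Refit counts at an unadjusted p that carry no share of all genes show only this dependence. They are not results about the set. Depth limits Myocd, Kcnma1, Cacna1c, Kcnmb1 and Ppp1r14a. The cause of the changes below was not tested. Scaling by total counts moved the median of all genes by up to -0.34, for immunized against naive Cpa3Cre/+ mice. It brought the ratio of highest to lowest sum to 8.01, and the muscle-restricted genes alone gave 8.60. Both ratios include the library labelled Cpa3Cre/+ naive replicate 1.

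Without the filter on low counts the genes past the adjusted threshold numbered 1 for the genotype average, 11 for naive, 1 for day 3 and 6 for day 5 between genotypes, where 0.153%, 0.518%, 0.153% and 1.45% of all genes were called. The numbers were 22, 12 and 2 for immunized against naive, day 3 and day 5 in both genotypes, 1 for day 1 in Cpa3+/+ mice, 23 and 15 for immunized against naive and day 3 in Cpa3Cre/+ mice, and 2 each for the differences between genotypes of immunized against naive and of day 3. Of all genes, 1.80%, 0.886%, 2.83%, 0.820%, 2.42%, 0.574%, 0.402% and 0.215% were called in these comparisons, in that order. At an unadjusted p they were then 13 (genotypes, day 5), 21 and 26 (day 3, both genotypes and Cpa3Cre/+) and 22 (difference of immunized against naive).

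With female libraries only, 22 and 24 genes passed for immunized against naive (both genotypes, Cpa3Cre/+) and 0 for day 5 in both genotypes (5.46%, 6.88% and 0.457% of all genes), with 19, 23 and 25 at an unadjusted p for day 3 in both genotypes, day 3 in Cpa3Cre/+ and the difference of immunized against naive. The medians were then -1.03 between immunized genotypes, -1.71 and -3.004 for immunized against naive, 1.82 and 0.79 for day 3 and day 5 in Cpa3Cre/+, and -2.46, 1.85 and 0.45 for the differences of immunized against naive, day 3 and day 5. DESeq2 called 1 gene for immunized against naive in Cpa3Cre/+ (0.453% of all genes) and gave 8 at an unadjusted p for the difference, for which the fit without sex gave 20. With the replicate number as a block, Srf was not called (edgeR, adjusted p = 0.0566; 0 of the 32 on day 5 in both genotypes, 0.864% of all genes) and the difference of immunized against naive had 15 genes at an unadjusted p. The block changed no other call, and 9 of 23 libraries correlated best with their own number.

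Without the 2 libraries at the ends of the first principal component, the medians were -0.10 for naive genotypes, -0.69 for immunized against naive in Cpa3Cre/+ and -0.43 for the difference. Unadjusted counts were 0 for naive genotypes, 3 for genotypes on day 5 and 0 for all 3 of immunized against naive, calls on day 5 numbered 2, 1 and 1 (both, Cpa3+/+, Cpa3Cre/+; 11.9%, 2.33% and 4.66% of all genes), and the ratio of sums was 2.96. Without the 3 libraries rich in follicle genes, the medians were 0.88 between immunized genotypes, -0.67 and -0.95 for day 1 (both, Cpa3Cre/+), -0.81 for immunized against naive, 0.51 for day 3 and -0.92 for day 5 in Cpa3Cre/+, and -0.22, -0.58, 0.33 and -1.45 for the differences of immunized against naive, day 1, day 3 and day 5. There, 0 genes had an unadjusted p under 0.05 in each comparison of immunized against naive and day 3 that had any, and 0 were called on day 5 (0.189% of all genes). With the length slope as a covariate unadjusted counts were 1 (genotypes, day 5), 4 (day 3, both) and 2 (difference of immunized against naive). The shares of all genes were 3.02%, 4.97% and 2.16%, in that order. With this covariate 1 gene was called on day 5 in each genotype (0.661% and 1.49% of all genes).

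When each library was left out in turn, medians ran from -0.071 to 1.61 for naive genotypes, -1.03 to 0.38 for immunized genotypes, -2.54 to -0.69 for immunized against naive in Cpa3Cre/+, -0.071 to 1.44 for day 1, 0.57 to 2.19 for day 3 and -0.59 to 0.79 for day 5 in Cpa3Cre/+, and -2.18 to -0.40, 0.33 to 1.99, 0.60 to 2.10 and -0.99 to 0.45 for the 4 differences in that order. Calls ran from 0 to 11 and 0 to 21 for immunized against naive (both, Cpa3Cre/+) and 0 to 1 for day 5 (both, Cpa3Cre/+). Unadjusted counts ran from 0 to 27 for naive genotypes, 0 to 14 for genotypes on day 5, 0 to 28 for immunized against naive (both, and Cpa3Cre/+), 1 to 20 and 0 to 24 for day 3, and 0 to 25 for the difference of immunized against naive. The ratio of sums ran from 2.96 to 4.95.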
